A study of Rattus norvegicus with 16 samples.

Results

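Oxidative phosphorylation is carried by 5 protein complexes of the inner mitochondrial membrane. Complexes I to IV pass electrons from nutrients to oxygen and pump protons, and complex V, the ATP synthase, uses the proton gradient to make ATP. Most subunits are encoded in the nucleus and imported, while a small set is encoded by the mitochondrial genome. The intervertebral disc has few vessels and its cells are known to rely largely on glycolysis at low oxygen.

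The genes described here are the 81 nuclear genes, of 13596 listed in all 16 files, whose names begin with the prefixes of the subunits: Ndufa, Ndufb, Ndufc, Ndufs or Ndufv (complex I, 37 genes), Sdha to Sdhd (complex II, 4 genes), Uqcr (complex III, 8 genes), Cox4i, Cox5, Cox6, Cox7 or Cox8 (complex IV, 15 genes) and Atp5 (complex V, 17 genes). Assembly factors named Ndufaf or Sdhaf were left out. The prefix places Ndufa4 with complex I, although its protein is now assigned to complex IV. The rule reads names and no measured value, although earlier results of these data were known when this set of genes was chosen.

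Discs of 8 male Sprague-Dawley rats, operated on at 8 weeks of age, were collected at 2 weeks after surgery from rats 1 to 4 and at 8 weeks from rats 5 to 8, and were read by single-cell RNA sequencing of 3′ ends. In each rat, discs L4-5 and L5-6 were stabbed with a 27G needle (lumbar disc puncture, LDP), and the unstabbed discs L2-3 and L3-4 of that rat served as control (CON). The discs of a kind were pooled within a rat, which gave 4 libraries in each of the 4 groups, CON and LDP at 2 and at 8 weeks. The control discs thus lie in an operated spine, and no library came from an unoperated rat.

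The study's own classes were used: intervertebral disc (IVD), endothelial, myeloid, lymphoid and unnamed cells, and at 2 weeks 3 subclusters of IVD cells, NP (nucleus pulposus), IAF (the annulus fibrosus, inner part) and OAF (its outer part). Each group was clustered by itself. The subclusters carry only numbers in the files, and the names were matched to the numbers here. The text of the study gives number 1 to NP in CON and names no numbers for LDP. Numbers 1, 2 and 3 were read as NP, IAF and OAF in CON, and as IAF, NP and OAF in LDP. The 6 outer annulus markers had a median sum of 4263 CPM in NP and 6439 CPM in IAF cells of CON, but 3648 and 2344 CPM in LDP. For 5 disc markers it was 27217 and 26085 CPM in CON, but 23035 and 25222 CPM in LDP. The order of NP and IAF thus turned between CON and LDP, and this matching was not tested. The study describes NP by higher Acan and Col2a1 and lower Col1a1. By these sums, the LDP subcluster read as IAF came closer to that description than the one read as NP. Comparisons of CON with LDP within NP or IAF may therefore set unlike subclusters against each other. Of 149272 cells, 127077 were of the IVD class, 1313 to 14252 in a library, with a median of 4226 to 9889 UMIs (unique molecules) a cell. The 5 disc markers, among them Acan and Col2a1, reached a median of 5.68% to 6.77% of their summed level in IVD cells when measured in the endothelial, myeloid or lymphoid cells of that library. Of all cell barcodes, 2762 occurred in more than 1 library, at most 0.720% of the smaller library of a pair.

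Levels are the mean over the cells of a library of CPM, the counts of a cell scaled to a fixed total. Since a 3′ read marks a molecule and not a stretch of it, CPM was not divided by gene length. Levels of different genes can be set side by side as molecules, apart from differences in capture.

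Some of these genes share short DNA words known from promoters of respiratory genes, and the 4 stretches shown are those of Atp5me, which had the smallest adjusted p of these genes between 2 and 8 weeks, of Ndufa11, with an overlapping pair of NRF1 words, of Uqcrq, a called complex III gene, and of Ndufa4l2, the most abundant member. They are the bases just before the gene's start in RefSeq (GRCr8, the strand of the gene). Capitals mark the palindromic NRF1 word, which ends in its core GCATGCGC, that core alone, and the ETS word CCGGAAG or its reverse complement CTTCCGG.
Atp5me, chr14:1464610-1464859, plus strand: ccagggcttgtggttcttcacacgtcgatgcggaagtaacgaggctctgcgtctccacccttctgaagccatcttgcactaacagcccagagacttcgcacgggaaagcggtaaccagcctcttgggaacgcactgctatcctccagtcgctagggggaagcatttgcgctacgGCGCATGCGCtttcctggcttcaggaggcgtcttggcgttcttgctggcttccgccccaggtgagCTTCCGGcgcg
Ndufa11, chr9:1637464-1637613, plus strand: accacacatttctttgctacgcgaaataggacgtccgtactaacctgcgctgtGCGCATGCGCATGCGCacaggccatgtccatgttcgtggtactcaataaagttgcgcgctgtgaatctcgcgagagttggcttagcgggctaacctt
Uqcrq, chr10:38089979-38090128, minus strand: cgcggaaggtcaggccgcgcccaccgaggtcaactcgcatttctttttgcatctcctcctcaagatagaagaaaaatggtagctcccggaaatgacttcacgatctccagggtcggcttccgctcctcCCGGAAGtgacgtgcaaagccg
Ndufa4l2, chr7:65241919-65242168, plus strand: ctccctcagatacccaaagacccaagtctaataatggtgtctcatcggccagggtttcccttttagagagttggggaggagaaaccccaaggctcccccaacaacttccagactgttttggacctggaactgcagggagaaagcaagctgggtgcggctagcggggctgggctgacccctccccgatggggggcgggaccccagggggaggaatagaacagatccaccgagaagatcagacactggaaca

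RefSeq's table held the promoter of 71 of the 81 genes, 250 bases before to 50 after the start, 69 matched by symbol and the others by synonym. On either strand, the ETS word stood in 19 of these 71 (26.8%), against 9.22% of all 27457 promoters of this length. The whole NRF1 word stood in 4 (5.63%, against 0.932%) and its core in 8 (11.3%, against 2.66%), the YY1 word AAGATGGCG in 9 (12.7%, against 1.93%), and the ERR word TCAAGGTCA in 2 (2.82%, against 0.412%). The shorter word ACGTG, the core of hypoxia response elements, which also lies within the E-box word CACGTG, stood in 18 (25.4%, against 19.7%), and CACGTG itself in 5 (7.04%, against 6.65%). None of these words lay in the window of Ndufa4l2. Of the 23 matched members called higher with time in CON, 7 held the ETS word, and 12 of the 48 others did. These are matches of letters, not binding sites, and promoters of every kind of gene stand in the comparison.

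The members were mostly abundant in IVD cells. Their mean over the 16 libraries had a median of 130 CPM, against 13.1 CPM for all 11150 genes with a mean of at least 1 CPM, and 47 of the 81 reached 100 CPM. Together they took 1.33% of the molecules of an IVD cell on average.

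In complex I, Ndufa4l2 led with 829 CPM, followed by Ndufa13 with 241 CPM, and Ndufa10l1 was lowest with 1.93 CPM. Ndufa4l2 is a paralog of Ndufa4 known to be induced in hypoxia. In complex II, which links the citric acid cycle to the chain, Sdhb (72.7 CPM) and Sdhc (42.7 CPM) were highest and Sdha, the flavoprotein, lowest (34.9 CPM). In complex III, Uqcrh (289.8 CPM) and Uqcrq (264 CPM) were highest and Uqcrfs1, the Rieske iron-sulfur protein, lowest (39.6 CPM). In complex IV, Cox4i1 (618 CPM) and its alternative isoform Cox4i2 (549 CPM) were highest, and Cox6b2, a testis isoform, lowest (0.715 CPM). In complex V, Atp5f1e (437 CPM) and Atp5mg (361 CPM) were highest and Atp5s, not a core subunit, lowest (5.80 CPM). Cox6b2 was the only member under the minimum of 1 CPM for testing, and Ndufa10l1 stood just above it. No member had a library without molecules in IVD cells.

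The isoforms thought to respond to low oxygen were high in disc cells. Ndufa4l2 exceeded Ndufa4 in all 16 libraries and made up, in means of groups, 75.6% to 83.9% of their sum. Cox4i2 made up 35.4% to 56.3% of Cox4i1 and Cox4i2 together. Of the tissue-specific isoforms, Cox6a2 (muscle) averaged 9.10 CPM against 379.9 CPM for Cox6a1, and Cox6b2 0.715 CPM against 63.0 CPM for Cox6b1. Cox7a1 (muscle) averaged 2.31 CPM, and Cox7a2l, a supercomplex factor related to subunit 7a, 178 CPM. Cox8a averaged 295 CPM. Cox7a2 and Cox8b were not analysed here.

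**Figure D1:**
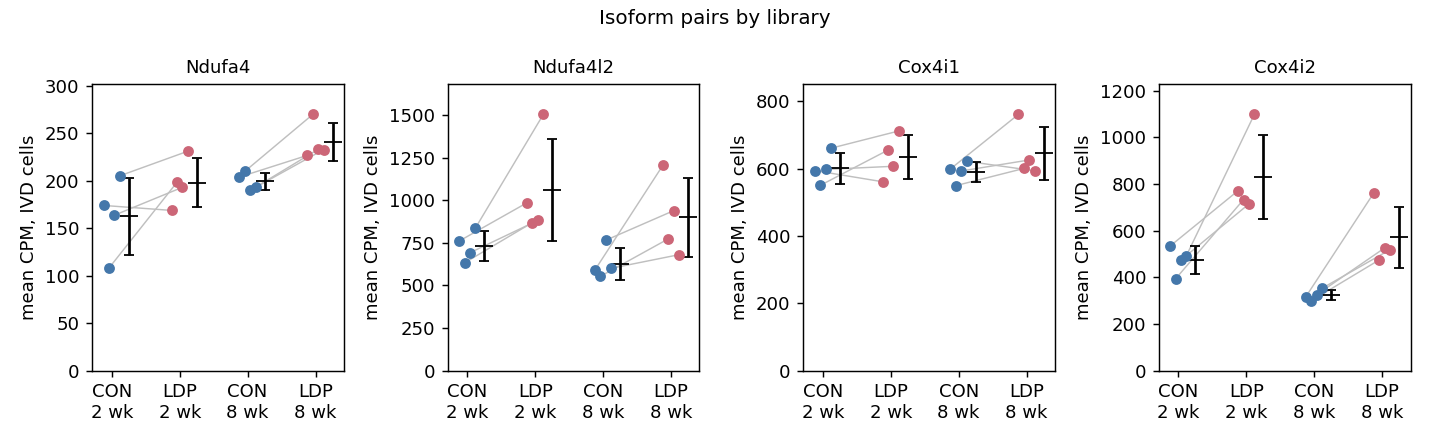
Mean CPM of Ndufa4, Ndufa4l2, Cox4i1 and Cox4i2 in the IVD cells of each library, by group (each axis from 0). Points are libraries, grey lines join the libraries of a rat, and black bars are the mean ± SD of 4 libraries. Cox4i2 lay higher in LDP than in CON in all 8 rats, and its groups did not overlap at either time.

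Levels by class and subcluster are a description without a test, since the cells were clustered on these same values. Summed over the 81 members, the level was 13344 ± 1903 CPM in IVD cells (SD, 16 libraries), 10815 ± 948 CPM in endothelial cells (12 libraries), 12329 ± 1656 CPM in myeloid cells (15 libraries) and 13760 ± 2633 CPM in lymphoid cells (11 libraries). A library counted where it had at least 20 cells of the class, and CON at 8 weeks has no endothelial class. The sums of IVD, myeloid and lymphoid cells lay within their spread of each other, and endothelial cells were lowest. Median depth was 6478 UMIs in IVD cells, and 2718, 4699 and 2447 UMIs in the other 3 classes in the same order, as means over libraries.

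The members did not all follow the class. Relative to the IVD cells of the same library, the median member differed by -0.33 (log2) in endothelial cells, by -0.25 in myeloid cells and by -0.09 in lymphoid cells, beside 0.05, -0.28 and 0.14 for all genes. Ndufa4l2 and Cox4i2 were the 2 lowest in each: -4.15 ± 0.99 and -3.89 ± 0.87 in endothelial cells, -4.17 ± 1.18 and -4.47 ± 1.93 in myeloid cells, and -4.36 ± 1.06 and -4.80 ± 1.33 in lymphoid cells (SD over libraries). Without these 2 genes the summed level was 11966 CPM in IVD cells, and 10712, 12228 and 13688 CPM in the endothelial, myeloid and lymphoid classes.

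Droplets carry some free RNA of other cells, and what was found of Ndufa4l2 and Cox4i2 outside the IVD class is set beside the level of the disc markers there. As a median share of the level in IVD cells of the library, Ndufa4l2 stood at 5.88%, 6.87% and 4.87% in the endothelial, myeloid and lymphoid classes and Cox4i2 at 7.45%, 5.92% and 4.08%, beside 6.38%, 6.77% and 5.68% for the disc markers. Ndufa4l2 in myeloid cells and Cox4i2 in endothelial cells stood above the disc markers, and the other medians below. How much of these levels was free RNA was not tested.

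Other members were higher in classes other than IVD. Lymphoid cells had 342 ± 77.8 CPM of Atp5f1a, the alpha subunit of the ATP synthase, against 121 CPM in the IVD cells of the same libraries (log2 ratio 1.46). They also had more Uqcrfs1 (1.34) and Ndufa4 (1.196), the latter at 502 ± 108 CPM. Cox6b2 also ranked among the highest ratios in lymphoid (1.1999 ± 1.48) and endothelial (0.50 ± 1.28) cells, but it ran from 0 to 11.9 CPM and from 0 to 9.34 CPM over their libraries, and the SD was larger than the ratio in both. Myeloid cells were led by Atp5if1, the inhibitor of the ATP synthase, with 727 ± 261 CPM against 265 CPM (1.37), then Sdhd (0.79) and Cox6b1 (0.64). Endothelial cells were led by Uqcrh (0.74) and Cox7a2l, a factor of respiratory supercomplexes (0.61). Atp5if1 was higher than in IVD cells in all 15 myeloid libraries, and Atp5f1a in all 11 lymphoid libraries. The myeloid class was uneven between libraries. Its granulocyte markers (4 of 7 listed) summed to 0 to 50220 CPM in CON and 0 to 56101 CPM in LDP at 2 weeks. At 8 weeks they reached at most 724 CPM in CON and 254 CPM in LDP, and their part in the myeloid levels was not tested. The lowest members besides Ndufa4l2 and Cox4i2 were Cox6a2 in endothelial (-2.40) and lymphoid (-2.51) cells and Atp5s in myeloid cells (-2.35). Both are low in IVD cells, at 9.10 and 5.80 CPM on average. Their ratios thus rest on few molecules and are bounded from below by the pseudocount of 1.

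Within the disc, NP and IAF cells, as matched above, differed little. The median member differed from the whole IVD class by -0.01 in NP and -0.02 in IAF cells, and Ndufa4l2 led in NP after Cox6a2 (0.15 against 0.23) and in IAF cells (0.16). Cox4i2 was 0.07 and 0.13 above the class. At the other end stood Cox6b2 (-0.40, at 0.285 CPM), Ndufb4 (-0.16) and Ndufv1 (-0.12) in NP, and Cox6b2 (-0.20, at 0.583 CPM), Ndufv3 (-0.13) and Ndufb4 (-0.13) in IAF cells. The remaining leaders were small in size, Atp5mc3 in NP at 0.08 and Ndufa7 in IAF cells at 0.07.

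OAF cells stood apart through the same isoforms. Ndufa4l2 was at 121 ± 34.0 CPM in OAF cells, 990.5 ± 299 CPM in NP cells and 1011 ± 347 CPM in IAF cells (8 libraries each), and in each library the OAF value was the lowest. Against NP cells, the OAF log2 ratio was -3.02 for Ndufa4l2 (range -3.73 to -2.52), -1.39 for Cox4i2 (-1.99 to -0.70) and -2.01 for Cox6a2 (-3.25 to -0.64). Disc markers in OAF cells were at a median of 56.4% of the IVD class, whereas Ndufa4l2 was at 14.4% and Cox4i2 at 38.4%. The median member was 0.06 above the IVD class in OAF cells, beside 0.21 for all genes. The highest ratios belonged to Cox6b2 (1.22), Ndufb4 (0.72) and Sdhd (0.50).

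**Figure D2:**
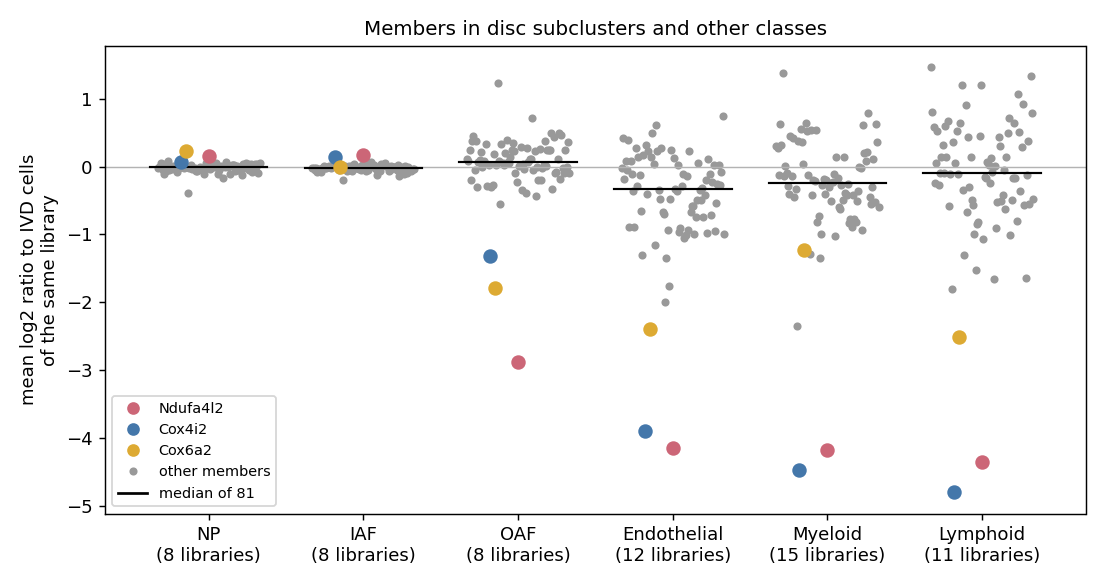
Mean log2 ratio of each of the 81 members to the IVD cells of the same library, by subcluster (2 weeks) and class. Dots are genes and black lines the median of 81. Ndufa4l2 and Cox4i2 lie at -2.87 and -1.32 in OAF cells and near -4 or below in endothelial, myeloid and lymphoid cells, while the bulk of the members lies around 0.

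The first question of the design is how punctured and control discs of a rat differed, called the injury comparison here. All LDP discs were L4-5 and L5-6 and all CON discs L2-3 and L3-4, so puncture and disc level cannot be told apart. The test was limma on log2(mean CPM + 1) of IVD cells over all 16 libraries with the rat as block, adjusted by Benjamini-Hochberg over 11150 genes, and a gene was called at an adjusted p below 0.05. Changes of low genes are understated on this scale.

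At 2 weeks after puncture the summed level was higher in LDP than in CON in each of the 4 rats. It was 11672, 10012, 11092 and 12804 CPM in CON of rats 1 to 4 and 12021, 13414, 12211 and 16693 CPM in LDP. The groups overlapped, and rat 4 was the highest in both. Without Ndufa4l2 and Cox4i2 the sum was higher in 3 of 4 rats: in rat 1 it was 10379 CPM in CON and 10265 CPM in LDP, and in means 10192 and 11696 CPM. With both genes the mean was 1.19 times that of CON, with 4740 against 3810 CPM in complex I, 190 against 177 in complex II, 1151 against 973 in complex III, 4144 against 3408 in complex IV and 3359 against 3027 in complex V. Complexes III and V were higher in 3 of 4 rats, the others in all 4. In rat 1, however, the median member of complex IV stood at -0.01 (log2), with 7 of 14 tested positive. That of complex I stood at 0.03 in rat 1, with 24 of 37 positive.

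Of 80 members tested, none was called at 2 weeks, where 0.135% of all genes were called higher and 0.0448% lower. The smallest adjusted p was 0.081, and 16 members had an unadjusted p under 0.05, as did 11.7% of all genes. The median member stood at 0.21 (log2), beside -0.08 for all genes tested, and 75 of 80 were positive, beside 36.0% of all genes. In 33 members, all 4 rats were higher in LDP (8.53% of all genes), in none all lower (14.1%). The groups did not overlap in 7 members, all higher (2.74% of all genes, with 4.42% lower). By rat, the median member stood at 0.02, 0.42, 0.11 and 0.36 in rats 1 to 4. Ribosomal reads in IVD cells were 11.7%, 10.9%, 10.4% and 13.04% in CON and 11.7%, 12.3%, 11.04% and 16.3% in LDP of these rats, level in rat 1 and higher in LDP in the others. With ribosomal and mitochondrial genes out of each cell's total, the median member stood at 0.22 at 2 weeks.

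The largest values at 2 weeks among members higher in all 4 rats were those of Cox6a2 and Cox4i2. Cox4i2 had 534, 393, 474 and 493 CPM in CON and 771, 733, 714 and 1098 CPM in LDP of rats 1 to 4. Every LDP library lay above every CON library. The log2 change was 0.79 ± 0.15 (SE), which missed the threshold (limma, adjusted p = 0.081). Cox6a2, the muscle isoform of a complex IV subunit, had 1.80, 8.00, 2.11 and 3.27 CPM in CON and 4.02, 23.5, 4.37 and 9.23 CPM in LDP, with overlapping groups and a log2 change of 1.09 ± 0.26 (adjusted p = 0.17). Skeletal muscle markers in IVD cells summed to 31.2 to 51.5 CPM in CON and 40.8 to 93.8 CPM in LDP. Of the 4 tested, Tnni2 was higher in LDP in all 4 rats and 3 were lower in all 4. Their part in the Cox6a2 value was not tested. The 6 outer annulus markers summed to 8681 to 15017 CPM in CON and 6663 to 13306 CPM in LDP at 2 weeks, with a median log2 change of -0.67. Ndufa4l2 had 760, 632, 692 and 836 CPM in CON and 985, 869, 881 and 1503 CPM in LDP. Its groups did not overlap, and its change was 0.51 ± 0.15 (adjusted p = 0.24). No member was lower in all 4 rats. The lowest value was that of Ndufs1 (-0.35 ± 0.29), a core complex I subunit, which rests on rat 4 at this time. By rat its change was 0.08, 0.17, -0.09 and -1.58, with 24.9 CPM in CON and 7.69 CPM in LDP of rat 4. At 8 weeks Ndufs1 was also low in LDP of rat 5, at 8.44 CPM against 20.1 CPM in its CON. Why these LDP libraries were low was not tested.

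DESeq2 on the summed counts, which scales libraries to a common median gene, called 6 members higher at 2 weeks (1.61% of all genes, with 0.924% called lower): Cox6a2, Cox4i2, Ndufa3, Atp5f1d, Ndufs4 and Ndufa5, by 0.44 to 1.43. edgeR with TMM called none (0.17% of all genes higher and 0.0359% lower), with 28 at an unadjusted p under 0.05 (12.7% of all genes).

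By subcluster, the same comparison at 2 weeks called no member in any of the 3 by limma, with 15, 6 and 4 members of NP, IAF and OAF cells at an unadjusted p under 0.05 (9.97%, 13.5% and 11% of all genes). In NP and IAF cells no gene at all was called, and in OAF cells 1.15% were called higher and 0.103% lower. For the median member the change was 0.25, 0.23 and 0.02 in that order, beside -0.03, -0.14 and -0.09 for all genes. Whether OAF cells differed from the others in this was not tested. Cox4i2 was at 498 ± 57.0 CPM in CON and 871 ± 209 CPM in LDP in NP cells, 513 ± 94.7 and 935 ± 246 in IAF cells, and 214 ± 30.8 and 291 ± 51.6 in OAF cells (n = 4 each). Its log2 change was 0.79, 0.85 and 0.43, and that of Ndufa4l2 0.48, 0.53 and 0.58. Within NP and IAF cells the values of Cox4i2 were thus as large as over all IVD cells, under the matching of names given above. In OAF cells the smooth muscle and pericyte markers (7 of 8 listed, none at 0) summed to 98.2 to 138 CPM in CON and 578 to 892 CPM in LDP, without overlap, and their part in the OAF values was not tested. In endothelial cells, the summed level of the members was 10572 ± 890 CPM in CON and 10843 ± 1275 CPM in LDP at 2 weeks, within the spread between libraries.

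At 8 weeks the picture was similar, with 1 member called. The summed level was 12895, 12727, 13615 and 13146 CPM in CON of rats 5 to 8 and 17121, 15083, 14782 and 14210 CPM in LDP. Every LDP library lay above every CON library, and the mean was 1.17 times that of CON. Without Ndufa4l2 and Cox4i2 it was 12145 CPM in CON and 13830 CPM in LDP, higher in 4 of 4 rats. Ribosomal reads in IVD cells moved with it, at 13.4%, 13.1%, 14.4% and 13.9% in CON and 17.8%, 15.3%, 15.2% and 14.5% in LDP of rats 5 to 8, and rat 5 was highest in LDP in both. With ribosomal and mitochondrial genes out of each cell's total, the median member changed by 0.22 (log2) with injury at 8 weeks. By complex, LDP stood against CON at 5099 and 4257 CPM (I), 203 and 186 (II), 1403 and 1225 (III), 4675 and 3873 (IV) and 3920 and 3555 (V).

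Cox6a2 was the member called higher at 8 weeks, where 0.117% of all genes were called higher and 0.152% lower. It had 4.13, 4.64, 6.77 and 2.74 CPM in CON and 32.9, 11.3, 13.4 and 13.3 CPM in LDP of rats 5 to 8. The groups did not overlap, and rat 5 had the highest LDP value. It rose by 1.67 ± 0.26 on the log2 scale (limma, adjusted p = 0.032), which rests on 110 to 234 molecules in a CON library and 143 to 1677 in an LDP library. The call was lost when rat 1, 5, 6, 7 or 8 was left out (adjusted p 0.053, 0.11, 0.10, 0.11 and 0.11) and in the fit without the rat block (0.098). Skeletal muscle markers in IVD cells summed to 27.3 to 55.3 CPM in CON and 34.5 to 66.9 CPM in LDP at 8 weeks (5 of 12 listed in all files, none at 0). Most of that sum was Tnni2, and of the 4 tested 2 were positive and 2 negative, with a median log2 change of -0.10. The part of these markers in the Cox6a2 result was not tested.

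The median member stood at 0.19 at 8 weeks, beside -0.16 for all genes tested, and 74 of 80 members were positive, beside 28.7% of all genes. By rat, it stood at 0.35, 0.20, 0.08 and 0.11 in rats 5 to 8, highest in rat 5. All 4 rats were higher in LDP for 42 members (7.72% of all genes) and lower for 1, Atp5f1b (26.3%). The groups did not overlap in 22 members, all higher (2.52% of all genes, with 11.4% lower). On the scale centred on the median gene, the median member stood at 0.37, beside 0.02 for all genes.

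Cox4i2 had 317, 299.6, 326 and 353 CPM in CON and 762, 475, 526 and 519 CPM in LDP at 8 weeks. Again every LDP library lay above every CON library. The change was 0.79 ± 0.15 (adjusted p = 0.061), and without the rat block the adjusted p was 0.049. The 6 outer annulus markers, which mark cells low in Cox4i2, Ndufa4l2 and Cox6a2, moved the other way in IVD cells. Their sum ran from 2388 to 4268 CPM in CON and from 1012 to 2751 CPM in LDP. Each of the 6 was lower in LDP in all 4 rats (median log2 change -1.21), as were 26.3% of all genes. No subclusters were used at 8 weeks, and the part of this shift in the results at 8 weeks was not tested. Ndufa4l2 had 590.5, 553, 765 and 600.2 CPM in CON and 1205, 773, 938 and 680.3 CPM in LDP, with overlapping groups and a change of 0.50 ± 0.15 (adjusted p = 0.13). Atp5f1b, the catalytic beta subunit of the ATP synthase, had 406, 406, 372 and 388 CPM in CON and 390.5, 364, 331 and 366 CPM in LDP. Its change was -0.12 ± 0.10 (adjusted p = 0.51), and centring on the median gene turned it to 0.06. Ndufa4, the partner of Ndufa4l2, was at 199 ± 9.36 CPM in CON and 241 ± 19.7 CPM in LDP, and Cox4i1 at 591 ± 30.2 and 645 ± 78.5 CPM.

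DESeq2 called 8 members higher at 8 weeks (2.61% of all genes, with 2.57% called lower), Cox6a2, Ndufa3, Cox4i2, Ndufs4, Ndufa11, Atp5md, Atp5f1d and Ndufa4l2, and edgeR with TMM called 2 (0.17%, with 0.0897% lower), Cox6a2 and Ndufa3.

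The share of Cox4i2 within the Cox4i1 and Cox4i2 pair does not depend on how a library is scaled. It was 44.0 ± 2.45% in CON and 56.3 ± 3.60% in LDP at 2 weeks, and 35.4 ± 0.657% in CON and 46.6 ± 2.49% in LDP at 8 weeks (n = 4 each). It was higher in LDP in all 8 rats. The share of Ndufa4l2 within the Ndufa4 and Ndufa4l2 pair was 82.0 ± 2.32% and 83.9 ± 2.55% at 2 weeks and 75.6 ± 3.25% and 78.2 ± 4.81% at 8 weeks, within the spread between libraries.

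The injury effects at both times were set against each other by the test of their difference, in which no member was called by limma (0% of all genes in either direction), edgeR or DESeq2 (0.00897% higher and 0.0987% lower), and none had an unadjusted p under 0.05 by any of them. The median difference of the members, 8 minus 2 weeks, was -0.02. For Cox6a2 it was 0.58 ± 0.37.

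**Figure D3:**
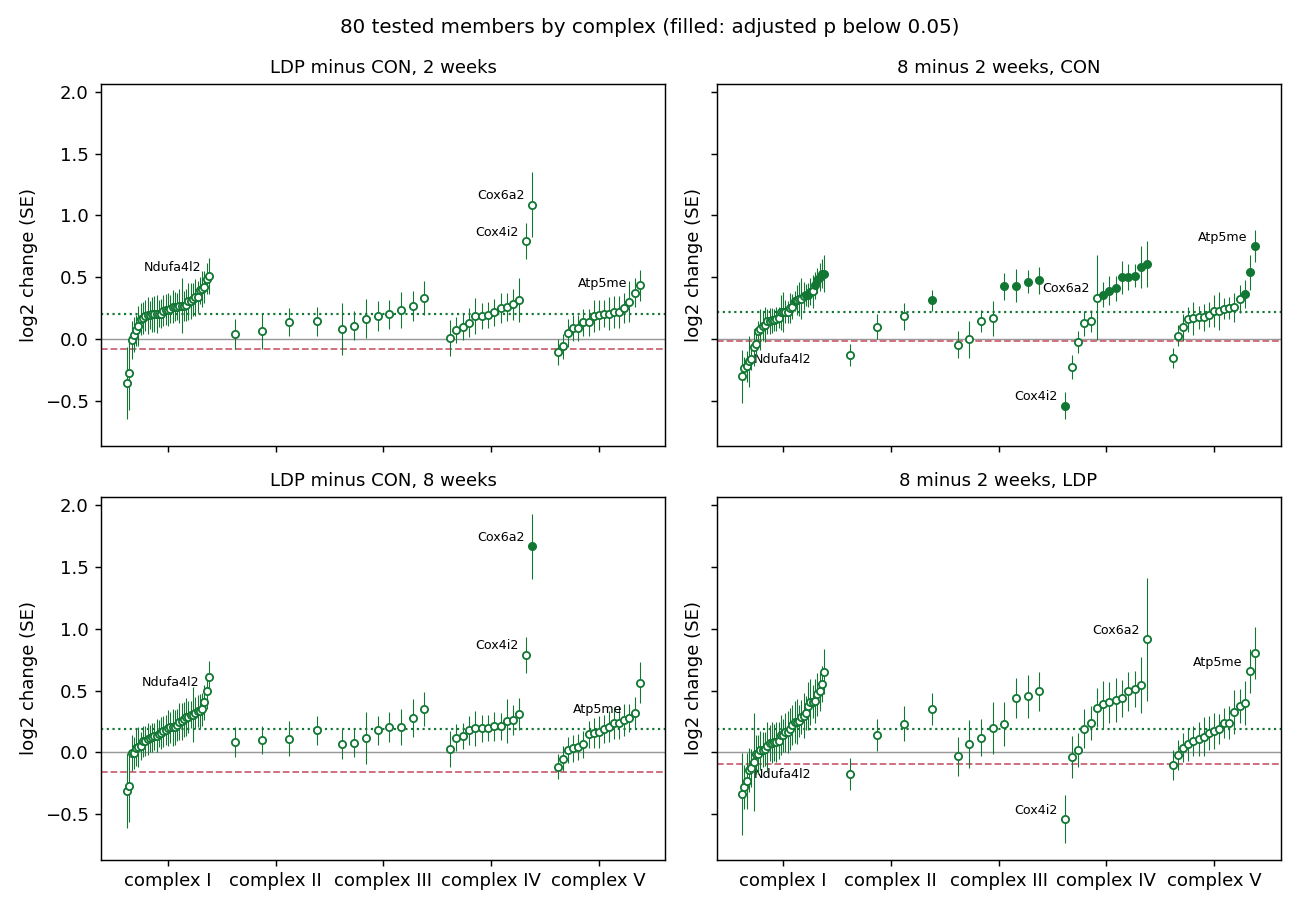
Log2 change (± SE) of the 80 tested members in IVD cells, ordered within each complex, for injury (left) and time (right). Filled points passed an adjusted p of 0.05, the dotted green line is the median member and the dashed red line the median of all genes tested. The median member lies between 0.19 and 0.22 in all 4 panels, above the median gene, and only CON between 2 and 8 weeks has many filled points.

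The transcripts encoded in mitochondria were not higher in LDP as the nuclear ones were. Over the 13 mitochondrially encoded subunits, the summed level was 37146 ± 3027 CPM in CON and 32887 ± 2774 CPM in LDP at 2 weeks, and 41100 ± 4988 and 38048 ± 4011 CPM at 8 weeks. It was lower in LDP in 3 of 4 rats at each time, while the nuclear sum was higher in 4 of 4. Without Ndufa4l2 and Cox4i2 the nuclear sum was higher in 3 of 4 at 2 weeks and in 4 of 4 at 8 weeks. The mitochondrial reads percent of the files is the same quantity on another scale: 3.71 ± 0.303% in CON and 3.29 ± 0.277% in LDP at 2 weeks, and 4.11 ± 0.499% and 3.80 ± 0.401% at 8 weeks. The differences within rats, -0.426 ± 0.516 and -0.305 ± 0.323 percentage points (SD, n = 4), were not larger than the spread. Exact two-sided permutation of the 8 libraries gave p = 0.114 and p = 0.371 (smallest possible 0.0286), and exact sign flips over the 4 rats p = 0.375 and p = 0.25 (smallest possible 0.125). The study filtered cells on this measure, which bounds it from above.

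The ratio of mitochondrially encoded to nuclear members was 3.23, 3.61, 3.04 and 3.20 in CON and 2.49, 2.69, 2.79 and 1.88 in LDP of rats 1 to 4. In rats 5 to 8 it was 3.66, 3.39, 2.68 and 2.86 in CON and 2.38, 2.75, 2.52 and 2.30 in LDP. It was lower in LDP in all 8 rats, with separate groups at 2 weeks and overlapping groups at 8 weeks. Between classes the ratio was 2.84 in IVD cells, 4.00, 3.98 and 3.53 in the endothelial, myeloid and lymphoid classes, and 3.57 in OAF against 2.82 in NP cells. Of the 13 genes, none was called with injury at either time, and 2 at 2 weeks and 1 at 8 weeks had an unadjusted p under 0.05 (11.7% and 20.8% of all genes).

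**Figure D4:**
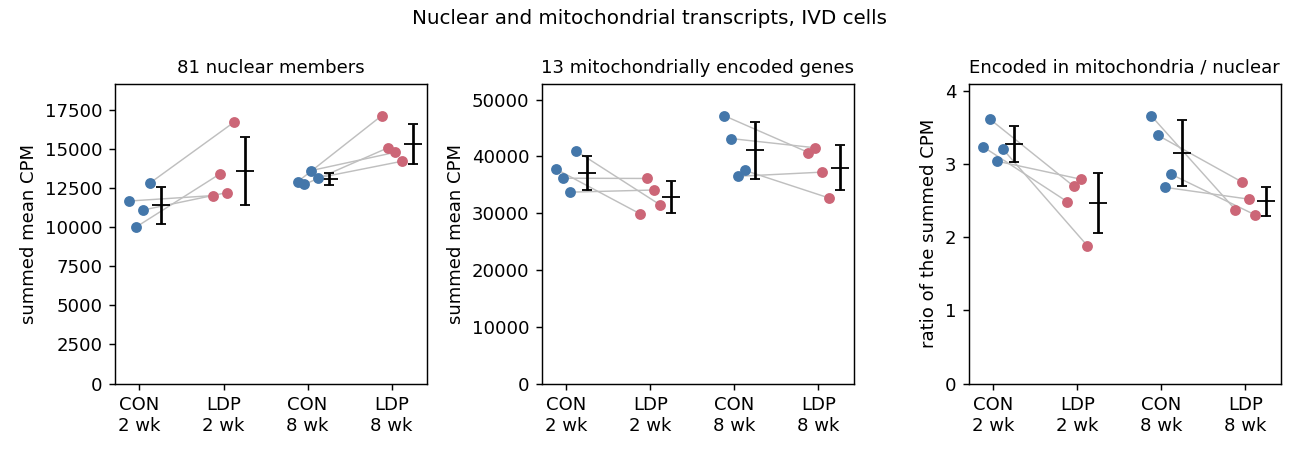
Summed mean CPM of the 81 nuclear members (left), of the 13 mitochondrially encoded subunits (middle) and their ratio (right) in IVD cells of each library, axes from 0. Points are libraries, grey lines join the libraries of a rat, black bars are the mean ± SD of 4. The nuclear sum was higher and the ratio lower in LDP in all 8 rats; without Ndufa4l2 and Cox4i2 the nuclear sum was higher in 3 of 4 rats at 2 weeks and in 4 of 4 at 8 weeks.

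The second question is how the discs differed between 2 and 8 weeks after surgery. These are different rats, so time after surgery, age and any batch that follows the time point cannot be told apart. CON and LDP were each fitted over their 8 libraries. Both share their libraries with the injury comparison, so the values are given side by side and support nothing between them.

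In CON, 25 members rose from 2 to 8 weeks and 1 fell, of 80 tested (7.31% of all genes were called higher and 11.5% lower). The median member stood at 0.22, beside -0.02 for all genes, and 66 of 80 were positive, beside 47.9% of all genes. The groups did not overlap for 27 members that were higher (9.72% of all genes) and 4 that were lower (14.3%). Called higher were 9 of 37 in complex I, 1 of 4 in complex II, 4 of 8 in complex III, 8 of 14 in complex IV and 3 of 17 in complex V. edgeR with TMM called 28 members higher and 1 lower (9.43% and 12.3% of all genes), and DESeq2 34 and 1 (13% and 14.2%).

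Atp5me, the small e subunit at the membrane part of the ATP synthase, had the smallest adjusted p. It had 107, 75.3, 83.0 and 109 CPM in CON at 2 weeks and 141, 167, 163 and 154 CPM at 8 weeks, and rose by 0.75 ± 0.13 on the log2 scale (limma, adjusted p = 0.0045). Cox7c, a small complex IV subunit, had 401, 402, 364 and 458 CPM at 2 weeks and 566, 554, 619.7 and 577 CPM at 8 weeks, and rose by 0.51 ± 0.09 (adjusted p = 0.0060). In neither did the groups overlap.

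Uqcrb, the ubiquinone-binding subunit of complex III, had 72.8, 64.2, 66.1 and 79.9 CPM at 2 weeks and 94.7, 97.3, 103 and 95.5 CPM at 8 weeks (0.46 ± 0.09, adjusted p = 0.0087). Cox6c had 341, 281, 312 and 386 CPM at 2 weeks and 466, 460.1, 465 and 464.5 CPM at 8 weeks (0.50 ± 0.10, adjusted p = 0.010). Ndufa7, an accessory complex I subunit, had 118, 109, 121 and 140.4 CPM at 2 weeks and 160.0, 159.6, 187 and 174 CPM at 8 weeks (0.48 ± 0.10, adjusted p = 0.011). Each of these 3 was higher in every 8-week library than in any 2-week library.

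Cox4i2 was the member that fell, from 473 ± 59.0 to 324 ± 22.4 CPM, by 0.54 on the log2 scale (SE 0.11, adjusted p = 0.0091), with no overlap. It stayed called lower in all 20 other settings run, with an adjusted p of 0.00069 to 0.036. Its partner Cox4i1 was at 601 ± 45.5 and 591 ± 30.2 CPM. Ndufa4l2 was at 730.0 ± 88.1 and 627 ± 94.0 CPM (-0.22 ± 0.13, adjusted p = 0.24), and Ndufa4 at 163 ± 40.5 and 199 ± 9.36 CPM. Among the isoforms, Cox7a1 rose from 1.56 ± 0.373 to 2.86 ± 0.771 CPM (0.58 ± 0.17, adjusted p = 0.038) and Cox6b1 from 44.5 ± 9.31 to 68.8 ± 16.9 CPM (0.60 ± 0.18, adjusted p = 0.044).

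The number called higher varied when a rat was left out. It was 8 without rat 3, 10 without rat 1 or rat 5, and 14 without rat 7 or rat 8. It was 15 without rat 6, 19 without rat 2 and 27 without rat 4. Without rat 4, 5.94% of all genes were called higher, against 7.31% with all rats. For the other rats that share is not given here, so whether the members or all genes lost calls cannot be told. Markers in the IVD class also changed: the 6 outer annulus markers summed to 8681 to 15017 CPM in CON at 2 weeks and 2388 to 4268 CPM at 8 weeks, with none at 0. The 5 disc markers summed to 19557 to 28739 and 9031 to 13591 CPM. Both sums thus fell, and whether the make-up of the class or the expression of its cells changed was not tested. Ribosomal reads in IVD cells of CON were 11.7%, 10.9%, 10.4% and 13.04% at 2 weeks and 13.4%, 13.1%, 14.4% and 13.9% at 8 weeks, without overlap. With ribosomal and mitochondrial genes out of the total, 28 members were called higher and 1 lower, and the median member stood at 0.27, beside 0.02 for all genes. With OAF cells left out at 2 weeks but all IVD cells kept at 8 weeks, 25 members were called higher. Of these, 22 were also called with all IVD cells, and Cox4i2 was called lower (-0.64). The median of all genes stood at 0.04 in this fit, which compares unlike sets of cells. The share of all genes called is not given here for it or for the fit before it.

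In LDP no member was called between 2 and 8 weeks (1.08% of all genes were called higher and 3.28% lower), and 23 had an unadjusted p under 0.05, as did 22.9% of all genes. The median member stood at 0.19, beside -0.09 for all genes, and the groups did not overlap for 12 members, all higher (6.28% of all genes, with 9.5% lower). Markers in the IVD class moved in LDP too: all 6 outer annulus markers were lower at 8 weeks (median log2 change -1.29, 2 called), and the median of the 5 disc markers was -0.61 (2 called lower). Whether make-up or expression changed was not tested here either. With OAF cells left out at 2 weeks but all IVD cells kept at 8 weeks, no member was called in LDP. The share of all genes called is not given here for this fit, which compares unlike sets of cells. The median member then stood at 0.20, beside -0.03 for all genes, and Cox4i2 at -0.66 ± 0.20 (limma, adjusted p = 0.13). Atp5me was at 122 ± 26.1 and 190 ± 23.0 CPM (0.66 ± 0.18, adjusted p = 0.066), and Ndufa3 at 39.1 ± 7.34 and 61.7 ± 9.26 CPM (0.65 ± 0.18, adjusted p = 0.071). In neither did the groups overlap. Cox4i2 was at 829 ± 181 and 570 ± 130 CPM (-0.54 ± 0.19, adjusted p = 0.13). The LDP library of rat 4 decided the count: without that rat 23 members were called higher (3.41% of all genes). That library had the highest sum of the members at 2 weeks, and 16.3% ribosomal reads in its IVD cells against at most 12.3% in the other 3. Whether the change with time differed between CON and LDP is the test of the difference given above, in which no member was called. DESeq2 called 4 members higher in LDP (5.87% of all genes, with 6.58% lower), Atp5md, Atp5me, Ndufa3 and Ndufb6, and edgeR with TMM none (1.47% higher and 2.73% lower), with 11 at an unadjusted p under 0.05 (23.4% of all genes).

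Other mitochondrial and metabolic genes were read from lists, beside 7.31% of all genes called higher with time in CON and 1.08% in LDP. The lists were not tested against each other. Of 39 assembly factors tested, 6 rose with time in CON and none fell, led by the copper chaperone Cox17 (0.89 ± 0.10, adjusted p = 0.0011), Coa5 (0.77) and Ndufaf2 (1.07), and these 3 rose in LDP as well (0.83, 0.71 and 0.97). Of 22 mitochondrial ribosomal proteins, 3 rose in CON (Mrps14, Mrpl52 and Mrps15) and none in LDP. The median of this list stood at 0.23 and 0.20 with injury at 2 and 8 weeks (22 and 20 of 22 positive, none called) and at 0.25 and 0.19 with time in CON and LDP. Of 12 regulators of mitochondrial biogenesis, 3 rose in CON, the mitochondrial transcription factors Tfb1m (0.64), Tfam (0.49) and Tfb2m (0.48). Of 16 carriers and cytochrome c genes, Vdac1 (0.29) and Slc25a5 (0.40), which carries ADP and ATP, rose in CON.

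Glycolysis makes pyruvate, and the citric acid cycle supplies the chain with electrons. Of 16 citric acid cycle genes, none rose and Idh2 fell by 0.68 on the log2 scale in CON (adjusted p = 0.0019) and by 0.86 in LDP, and the median of the list was 0.03 in CON and -0.02 in LDP. Of 21 glycolysis genes, none rose and 4 fell in CON, Pkm (-0.56), Pfkm (-0.54), Eno1 (-0.33) and Pfkp (-0.55), and Pfkm alone in LDP (-0.79), where 11.5% and 3.28% of all genes were called lower. Among the 13 mitochondrially encoded genes, Mt-nd3 rose (0.68 in CON, 0.84 in LDP) and Mt-atp8 fell in CON (-0.70). With injury the lists held 1 call, Higd1a, a hypoxia-inducible protein that binds complex IV. It rose at 2 weeks (0.83 ± 0.12, limma, adjusted p = 0.042), where 0.135% of all genes were called higher. Without rat 4 no gene at all was called at 2 weeks, so this call was lost. The median of the glycolysis list stood at 0.24 at 2 weeks and 0.07 at 8 weeks with injury, and at -0.12 and -0.33 with time in CON and LDP.

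The markers of other cells in IVD cells varied by library, and some moved with the groups. Summed, the 5 myeloid markers ran from 21.7 to 98.2 CPM, the 5 lymphoid from 0.926 to 48.5 and the 5 erythroid markers listed of 8 from 2.30 to 3043 CPM, with none at 0. The 7 endothelial markers ran from 187 to 377 CPM in CON and 77.9 to 212 in LDP at 2 weeks, and from 98.7 to 119 and 59.3 to 89.0 CPM at 8 weeks. Their median log2 change with injury was -1.94 at 2 weeks and -0.72 at 8 weeks. At each time 5 of the 6 tested were lower in LDP in all 4 rats (14.1% and 26.3% of all genes), with none called. At 2 weeks those 5 did not overlap between groups, and at 8 weeks 4 did not (4.42% and 11.4% of all genes, lower). Of the 6 tested, 4 were called lower with time in CON, among them Cdh5 (-2.38), and none in LDP. The 7 smooth muscle and pericyte markers ran from 119 to 256 CPM in CON and 172 to 213 in LDP at 2 weeks, and from 125 to 175 and 105 to 133 CPM at 8 weeks. Their median log2 change with injury was 0.46 at 2 weeks and -0.44 at 8 weeks, and 4 of 7 were called lower with time in LDP, among them Rgs5 (-3.06) and Myh11 (-2.83). The part of these markers in the changes of the members was not tested.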

How the data were processed

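Per the labels and the study's methods, libraries were made with 10x Genomics 3′ v3.1 chemistry, and the authors processed reads in Partek Flow with rn6. The aligner is not given in the sources used here. The authors deposited log2(CPM + 1) for each cell, with its total of expected counts, its percent of mitochondrial and ribosomal reads and its class. Counts for edgeR 4.0.16 and DESeq2 1.42.0 were recovered from the log2 values and the totals, summed over the IVD cells of a library and rounded. IVD cells of a library held 13099300 to 79741500 UMIs, so a member at 1 CPM rests on few molecules in a shallow library.

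Members, lists and comparisons were chosen with earlier results of these data known. CPM was averaged over cells. The 11150 genes with a mean of at least 1 CPM were tested with limma 3.58.1 (trend) on log2(CPM + 1), with the pseudocount of 1. A run on simulated data planted log2 changes of 1 or more, larger than those of most members, and tells nothing about smaller changes. The 2 libraries of a rat come from 1 animal, which is the block (correlation of their deviations -0.185 to 0.465). Named were up to 5 called members a direction by adjusted p, otherwise the 2 largest with all rats or libraries in 1 direction, the highest 2 and the lowest of each complex, the isoform pairs, the 3 highest and lowest ratios of each class, and up to 3 called genes of a list. Atp5f1d, Ndufs4, Ndufa5, Ndufa11, Ndufs1, Atp5md, Ndufb6 and Pfkp, and Tnni2, Cdh5, Rgs5 and Myh11, were named after their values were seen. Alternatives are in the closing section. Unnamed cells were not compared. No doublet caller was run here, and how doublets were treated upstream is not given in the sources used here; the authors bounded the UMIs and genes of a cell.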

Additional observations from a re-analysis of the deposited data

Results flagged for a closer look

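Of 68 groups of 4 libraries tested for a gap, 5 had a highest or lowest library farther from the rest than Dixon's critical value allows, and chance alone gives about 1 in 20. Cox4i2 at 1098 CPM in LDP of rat 4 at 2 weeks stood above the other 3 libraries of its group. In LDP of rat 5 at 8 weeks, Cox6a2 stood at 32.9 CPM and Cox6a1 at 501 CPM, both above the rest. Ndufa4 stood at 270.2 CPM in LDP of rat 6 at 8 weeks, the library with the fewest IVD cells (1313). Cox6b1 stood at 58.4 CPM in CON of rat 4 at 2 weeks. No cause of these gaps was tested. Leaving out rat 5 removed the Cox6a2 call, as given with that result.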

How the results depend on the processing

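In 20 other settings for each comparison (23 for injury at 2 weeks), the median change of the members stayed positive for both injury comparisons and both time comparisons, and Cox4i2 stayed called lower with time in CON. Some of these settings could not move an injury change: leaving out a rat of the other time point, and leaving out the rat block. They add nothing to the count for the injury medians. The number of members called higher moved more. With injury at 2 weeks it was 6 by DESeq2. At 8 weeks it was 0 over all cells and with a pseudocount of 5, 2 with a pseudocount of 0.25, 2 when centred on the median gene, 2 by edgeR with TMM, 8 by DESeq2 and 0 to 3 when 1 rat was left out. Without rat 4, 0.906% of all genes were called higher and 4.19% lower at 8 weeks, against 0.117% and 0.152% with all rats. Where no such share is given here or above, whether the members or all genes moved cannot be told. The median member at 8 weeks was 0.37 centred, 0.31 by edgeR with TMM and 0.33 by DESeq2. The change of Atp5f1b turned to 0.062 centred, 0.037 by edgeR with TMM and 0.053 by DESeq2. The median of all genes, -0.16 in the main fit, stood at 0.02, -0.02 and -0.004 in these settings. With time in CON the number was 13 over all cells (all of them among the 25) and 8 to 27 with 1 rat left out, and with time in LDP it was 4 by DESeq2 and 0 to 23 with 1 rat left out, 23 without rat 4 and 1 without rat 8. Except where stated, the cause was not tested. With mitochondrial and ribosomal genes taken out of each cell's total, the summed CPM became 16176 in IVD, 14827 in NP, 14988 in IAF, 14364 in OAF, and 13344, 15344 and 18097 in the endothelial, myeloid and lymphoid classes.

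Both libraries of a rat are paired by the animal. Without the rat block, injury at 8 weeks again had 1 member called higher, Cox4i2 in place of Cox6a2, with the same changes of 0.79 and 1.67. In that fit 0.0807% of all genes were called higher and 0.251% lower. Leaving out the block changed no other call of the members. The time comparisons are between different rats and have no pairs. The number of libraries, 4 in a group, and the low counts of Cox6a2 limit the single genes, and reads of near-identical copies such as Ndufa10l1 may be split between loci.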
